A study of Mus musculus with 19 samples.

Results

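SINE B1 elements are short interspersed repeats of rodent genomes. They were taken as every element that the deposited repeat table assigns to the class SINE/Alu, which in the mouse holds the B1 family, and 292497 of its 2634743 elements met this rule, under 16 repeat names. The table was made for repeat elements outside genes on the mouse genome build mm10, although some of them overlap genes of the RefSeq annotation used here, and holds read counts per element in 6 RNA-seq libraries, 2 each of cystic EBs, E9.25 ysE and E9.25 VYS mesoderm. Methylation of CpGs in the same elements came from 6 libraries of whole genome bisulfite sequencing, 2 each of d15 cystic EBs and of ysE and fetal liver at E12.5. Position relative to active promoters came from the H3K4me3 peaks of 1 ChIP library of whole E12.5 visceral yolk sac.

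ysE is the endoderm layer of the visceral yolk sac (VYS), an extra-embryonic tissue, and VYS mesoderm is the layer beneath it with the blood islands. Both were dissected from FVB mice for RNA, each sample from the pooled embryos of a litter, and replicates were called A and B. Cystic EBs are embryoid bodies with a fluid-filled cavity and an endoderm-like outer layer, grown from ES cells. Both cystic EB libraries of the repeat table came from 1 ES cell clone of C57Bl/6x129 background, after 10 and 15 days of differentiation (d10 B and d15 B), so the spread between them holds the time of differentiation and not a second clone. Strain and tissue cannot be told apart between cystic EBs and the FVB tissues. The bisulfite libraries were from reciprocal crosses of CAST and FVB mice, with 1 library of each direction (CxF and FxC) per tissue, and the cystic EBs of each cross came from 1 ES cell clone. RNA and methylation of ysE were thus measured at different stages and in different crosses.

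B1 elements arose from 7SL RNA, the RNA of the signal recognition particle, and spread through copies made by the reverse transcriptase of LINE1. They carry an internal promoter for RNA polymerase III with an A box and a B box, and they are also transcribed as passengers of longer RNA polymerase II transcripts, which read counts cannot separate from transcripts of their own. Cells usually keep B1 elements methylated at CpGs, and methylated CpGs mutate over evolutionary time to TpG or CpA, so older copies hold fewer of them. The names were grouped by their known order of age. B1_Mm, B1_Mus1 and B1_Mus2 are young and the 4 B1_Mur names intermediate. B1F, B1F1, B1F2 and the 5 PB1 names are old, PB1 being the proto-B1 monomers from which the family arose.

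Young names held 116733 elements, intermediate names 67221 and old names 108495. The name FAM, a fossil monomer, added 48. B1_Mus1 was the largest name with 53645 elements, followed by B1_Mus2 with 37344, PB1D10 with 31138 and B1_Mm with 25744. The median element was 142 bases long in B1_Mm and 101 bases in PB1D10. The median alignment score to the repeat consensus, which rises with length and similarity, was 1100 in B1_Mm, 574 in B1_Mur1 and 333 in PB1D10.

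Sequence could be read for the 152 B1 elements that lay wholly within the 250 bases before the start of a RefSeq gene (RefSeq promoter windows of GRCm38.p6, the assembly of mm10). The following 6 are examples from these windows and need not be typical of their age group. Young elements with sequence had a median of 89 bases, against 142 in all B1_Mm elements. The B1_Mus2 element shown has 105 bases and an alignment score of 514, against medians of 141 and 1046 for its name. For each group the first is the element of at least 100 bases closest to its consensus by alignment score, and the second is the one with most bisulfite reads among those covered in at least 3 libraries. Each is written 5′ to 3′ on the strand that ends in the A-rich tail, with every CpG in capitals.
B1_Mus1, young, chr8:77735092-77735232, minus strand, before Gm39201: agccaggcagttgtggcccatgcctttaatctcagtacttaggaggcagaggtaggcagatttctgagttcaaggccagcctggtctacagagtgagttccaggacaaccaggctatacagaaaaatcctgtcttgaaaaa
B1_Mus2, young, chr5:143295921-143296025, minus strand, before Gm52794: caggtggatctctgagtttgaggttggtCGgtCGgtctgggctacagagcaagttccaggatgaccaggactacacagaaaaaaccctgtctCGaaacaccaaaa
B1_Mur4, intermediate, chr8:95575699-95575850, plus strand, before Prss54: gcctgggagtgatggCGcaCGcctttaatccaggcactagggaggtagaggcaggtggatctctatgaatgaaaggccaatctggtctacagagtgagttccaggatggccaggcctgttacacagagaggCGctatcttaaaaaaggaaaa
B1_Mur1, intermediate, chr8:112027530-112027656, minus strand, before Gm9564: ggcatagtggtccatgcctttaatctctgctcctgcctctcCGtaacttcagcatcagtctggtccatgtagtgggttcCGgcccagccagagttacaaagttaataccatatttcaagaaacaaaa
B1F, old, chr7:31151204-31151338, plus strand, before Gramd1a: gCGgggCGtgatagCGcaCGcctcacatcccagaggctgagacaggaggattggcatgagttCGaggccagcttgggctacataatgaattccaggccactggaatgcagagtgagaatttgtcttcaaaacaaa
PB1D10, old, chr1:184013172-184013274, minus strand, before Gm39725: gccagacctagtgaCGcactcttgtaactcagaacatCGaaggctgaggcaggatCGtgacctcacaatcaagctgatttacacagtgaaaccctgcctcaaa

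These sequences held between 0 and 5 CpGs. The B1F element, with 5, had 9 bisulfite reads, all from the FxC liver library, of which 33.3% were methylated (95% Wilson interval 12.1% to 64.6%). The PB1D10 element had 27 reads over 3 libraries with 92.6% methylated (interval 76.6% to 97.9%), the B1_Mur1 element 28 reads with 82.1% methylated (64.4% to 92.1%), and the B1_Mus2 element 12 reads, all of them methylated (75.8% to 100%). The intervals cover counting error only and do not overlap between the B1F element and either PB1D10 or B1_Mus2. The B1_Mus1 element, which holds no CpG, and the B1_Mur4 element had no read at a CpG.

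Among the 73 elements with sequence and at least 100 bases, the mean number of CpGs was 1.33 ± 1.15 (SD) in 12 young, 1.04 ± 1.16 in 24 intermediate and 1.16 ± 1.32 in 37 old elements. The differences between the age groups were smaller than the spread within each of them. The form of the RNA polymerase III B box that holds a CpG, GTTCGANNC, was searched on both strands. It was found in 3 of the 73, 1 of them intermediate and 2 old, among them the B1F element shown. The same letters with TpG in place of the CpG, GTTTGANNC, were found in 8 of the 73, 3 of them young. In comparison, 0.843% of all 32851 promoter windows of 300 bases held the first and 2.60% the second, and these windows are longer than the elements.

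To check the libraries against their labels, marker genes were read from the RPKM values that the authors deposited. The 6 ysE markers (Afp, Ttr, Apoa1, Apoa4, Amn and Cubn) summed to 10140 and 11508 RPKM in ysE, to 1098 and 1944 in VYS mesoderm and to 126 and 450 in cystic EBs. Hbb-y, an embryonic globin of primitive erythroid cells, had 18741 and 13955 RPKM in VYS mesoderm, 333 and 419 in ysE and 22.9 and 42.4 in cystic EBs. The 6 genes of mesoderm, endothelium and smooth muscle summed to 1177 and 1043 RPKM in VYS mesoderm, to 29.7 and 47.9 in ysE and to 39.8 and 197 in cystic EBs. The 4 pluripotency genes (Pou5f1, Zfp42, Nanog and Dppa5a) summed to 317 and 223 RPKM in cystic EBs (d10 B and d15 B) and to at most 6.09 elsewhere. Cystic EBs thus differed from ysE in the RNA of cell type markers, and the part of cell makeup in the B1 results was not tested. Fewer cells of a type and less RNA per cell cannot be told apart in such samples.

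The question for the RNA was how much of the repeat transcription of each tissue lay on B1. Repeat reads numbered between 86063967 and 188223399 per library, of which 65.9% to 79.4% lay on RNA genes, and shares were therefore taken of the remaining 22954164 to 38807888 reads. B1 took 9.20% and 10.4% of these reads in ysE, 6.35% and 6.55% in VYS mesoderm, and 4.80% and 5.34% in cystic EBs. Means were 9.81% ± 0.864 (SD, n = 2) in ysE, 6.45% ± 0.143 in mesoderm and 5.07% ± 0.382 in cystic EBs, and the 3 groups did not overlap. As a share of all repeat reads, RNA genes included, ysE with 2.23% and 2.15% was still highest, but cystic EBs with 1.64% and 1.27% overlapped mesoderm with 1.44% and 1.63%. Outside RNA genes, the ysE share was 1.52 times that of mesoderm and 1.94 times that of cystic EBs. No p-value is given for these shares, since the smallest that exact permutation of 2 and 2 libraries allows (two-sided) is 0.3333.

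The same order was seen in each age group. Young B1 took 4.403% and 4.91% of the reads in ysE, 2.90% and 2.92% in mesoderm, and 2.05% and 2.33% in cystic EBs. For old B1 the shares were 2.70% and 3.10%, 1.95% and 2.07%, and 1.63% and 1.79%. The ratio of ysE to mesoderm was thus 1.60 for young, 1.48 for intermediate and 1.44 for old B1, and that of ysE to cystic EBs was 2.12, 1.94 and 1.69. The other SINE families followed the same order. B2 moved further, from 4.598% ± 0.531 in cystic EBs and 8.52% ± 0.759 in mesoderm to 17.0% ± 1.28 in ysE, whereas B4 rose by a ratio of 1.46 from mesoderm to ysE, close to that of B1. All repeat reads in these shares add to 100%, so a rise of SINE families lowers the share of the others.

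7SL RNA, from which B1 descends, took 40.0% and 42.5% of all repeat reads in ysE, 35.0% and 35.4% in mesoderm, and 34.2% and 34.1% in cystic EBs. Its log2 fold change in ysE over mesoderm was 0.41 (SE 0.21), which did not pass the test (adjusted p = 0.209, edgeR). Per 1000 reads on 7SL RNA, B1 had 55.7 and 50.5 reads in ysE, 41.2 and 46.0 in mesoderm, and 47.9 and 37.2 in cystic EBs. Set against its parent RNA, B1 in cystic EBs overlapped mesoderm, and the lower ysE library was only just above the highest library of the others.

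Reads were then compared name by name, as reads per kilobase of element per 1000000 repeat reads outside RNA genes, which allows for the shorter elements of old names. On this density scale B1_Mm had 3.14 and 3.56 in ysE, 1.93 and 1.86 in mesoderm, and 1.43 and 1.64 in cystic EBs. B1_Mus2 was similar, with 3.27 and 3.58 in ysE, 2.02 and 2.11 in mesoderm, and 1.39 and 1.58 in cystic EBs. The densest of the 15 names other than FAM was PB1D9, an old monomer, with 4.02 and 4.27 in ysE, 2.96 and 2.99 in mesoderm, and 2.44 and 2.58 in cystic EBs. The least dense was B1F in cystic EBs, with 1.15 and 1.29.

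**Figure D1:**
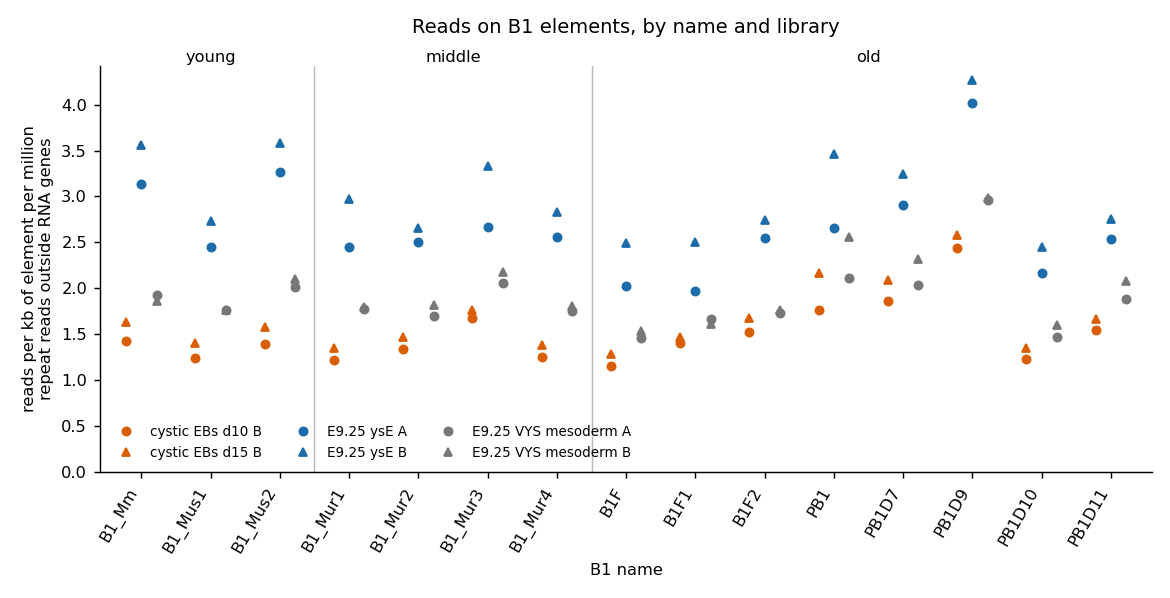
Reads per kilobase of element per 1000000 repeat reads outside RNA genes (vertical axis) for 15 B1 names (horizontal axis) in the 6 libraries, 1 point per library, with circles for the first and triangles for the second replicate of a group. The ysE libraries lie highest for every name shown, and FAM, whose 2 ysE libraries differed from 4.02 to 21.5, is left out.

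In ysE over VYS mesoderm, 13 of the 16 B1 names were higher at a false discovery rate of 5% (quasi-likelihood test of edgeR, adjusted by Benjamini-Hochberg over 1193 repeat names). The background of all names called higher was 10.6%, and no B1 name was among the 9.3% called lower. B1_Mm had the largest called log2 fold change, 0.90 (SE 0.13, adjusted p = 0.0135, edgeR), followed by B1_Mus2 with 0.82 (SE 0.11, adjusted p = 0.0135, edgeR). PB1D11 had the smallest called value, 0.50 (SE 0.11, adjusted p = 0.0329, edgeR). The median over B1 names was 0.65, against -0.02 over all names, and it was 0.82 for young, 0.66 for intermediate and 0.57 for old names. The names that did not pass were B1F1 (0.53, adjusted p = 0.0658), PB1 (0.48, adjusted p = 0.125) and FAM (1.07, SE 0.73, adjusted p = 0.330). Leaving out single libraries kept the log2 fold change between 0.77 and 1.03 for B1_Mm and between 0.40 and 0.59 for PB1D11. Every name except FAM stayed above 0, with the lowest value, 0.23, for PB1. The share of all names called in such smaller fits was not counted. The number of called names was 13 with the replicate block but depended on single libraries. With only the 2 groups in the fit it was 5. It was 0 without mesoderm A or without mesoderm B, 2 without cystic EBs d10 B, 5 without cystic EBs d15 B, 9 without ysE B and 16 without ysE A, the library left alone in its group being assumed to vary like the others.

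In cystic EBs over ysE, 14 of the 16 B1 names were lower, against a background of 17.2% of all names called lower and 16.9% called higher. The log2 fold changes of the called names ran from -0.57 for B1F1 and PB1D7 to -1.14 for B1_Mus2 (SE 0.11, adjusted p = 0.00255, edgeR). B1_Mm had -1.06 (SE 0.13, adjusted p = 0.00382, edgeR). When single libraries were left out, it lay between -1.19 and -0.91. Every name except FAM then stayed below 0, with -0.31 for PB1 as the smallest change. The medians were -1.06 for young, -0.88 for intermediate and -0.65 for old names, and 0.03 over all names. PB1, with -0.58, did not pass (adjusted p = 0.0601, edgeR), nor did FAM, whose value of -1.13 became 0.62 without ysE B. This count fell to 3 without cystic EBs d10 B and to 6 without cystic EBs d15 B, and lay between 12 and 16 without any of the other 4 libraries.

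In cystic EBs over VYS mesoderm no B1 name passed the test in edgeR or in DESeq2, against 1.51% of all names called higher and 1.51% called lower. At an unadjusted p under 0.05 there were 2 of the 16 B1 names, beside 232 of all 1193 names. Apart from FAM, the log2 fold changes lay between -0.33 for B1_Mur1 (SE 0.14) and 0.03 for B1F2 (SE 0.11), with a median of -0.15 over the 16 names. On the density scale every name except PB1 and PB1D7 was lower in both cystic EB libraries than in both mesoderm libraries. The share of all repeat names separated in this way was not counted, so no drop particular to B1 is read from it. B1F2 was among the names lower in density although its log2 fold change was 0.03, so the scales differed in direction for it. The 3 comparisons share their groups, so their values are given side by side and are not independent.

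**Figure D2:**
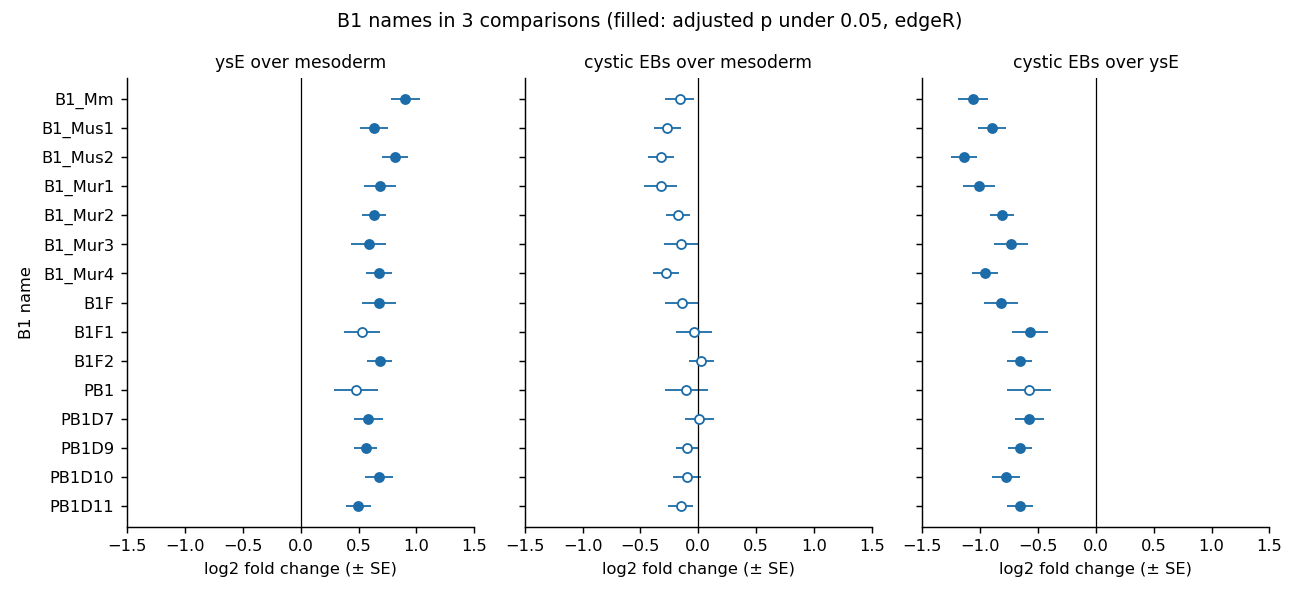
log2 fold change with its standard error (horizontal axis) of 15 B1 names (vertical axis) in ysE over VYS mesoderm, cystic EBs over mesoderm and cystic EBs over ysE, from edgeR fits over all repeat names. Filled points passed the 5% false discovery rate: the called names lie between 0.50 and 0.90 in the first panel and between -1.14 and -0.57 in the third, and the second has no filled point.

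Neighbouring elements often shared their reads, which matters for what these counts measure. Of the 242977 B1 elements with at least 1 read, 38.1% had exactly the same count in all 6 libraries as an adjacent repeat of any class. Among the 18968 B1 elements with at least 100 reads summed over the libraries, where low counts cannot give this by coincidence as easily, it was 18.3%. Over all repeats outside RNA genes these shares were 47.0% and 17.0%. Stretches of several kilobases could thus have nearly the same value for every repeat in them. Reads were also concentrated, with 42.5% of all B1 reads on the 2925 elements (1%) with most reads. This was less than the 71.5% on the top 1% of all repeats outside RNA genes. The median B1 element had 5 reads in all 6 libraries together, against 3 among all those repeats.

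To separate reads of an element from those of the stretch around it, the reads of each element above those of both adjacent repeats were summed by name, a measure added after the data had been seen. Of all B1 reads 7.21% were above both neighbours, against 52.4% of the reads on all repeats outside RNA genes. By name the share ranged from 17.3% for B1_Mm to 2.22% for B1F2 and 0.979% for FAM. B1_Mm had 2392 and 2823 such reads per 1000000 repeat reads outside RNA genes in ysE, 714 and 724 in mesoderm, and 476 and 525 in cystic EBs. The ysE mean was 3.62 times that of mesoderm and 5.20 times that of cystic EBs, against 1.77 and 2.18 for all B1_Mm reads. B1_Mus2 had 1657 and 1844 in ysE, 928 and 891 in mesoderm, and 580 and 673 in cystic EBs, a ratio of 1.93 of ysE to mesoderm. For B1_Mus1 this ratio was 1.36.

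Summed over their names, intermediate and old B1 lacked this rise on the same scale. Summed over intermediate names, the reads above both neighbours were 727 and 677 per 1000000 in ysE, 787 and 754 in mesoderm, and 603 and 672 in cystic EBs. For old names they were 914 and 806 in ysE, 1146 and 974 in mesoderm, and 1047 and 1086 in cystic EBs. The sum over old names in ysE was thus below that of every other library, although PB1 alone had 120 and 103 in ysE against 69.2 and 68.2 in mesoderm. Scaling decides this direction. When these reads were fitted in edgeR with their own TMM factors, 11 of the 16 names were called higher in ysE over mesoderm, against a background of 7.96% of the 980 names in that fit called higher and 4.49% lower, with log2 fold changes from 1.009 for B1_Mur2 to 2.24 for B1_Mus2 and 3.15 for B1_Mm. They held all young and intermediate names and the old names B1F1, PB1, PB1D7 and PB1D9, so that the direction of the intermediate names and of B1F1 and PB1D9 differed between the scales. The 5 names not called, B1F, B1F2, PB1D10, PB1D11 and FAM, also had ratios below 1 per 1000000 reads and log2 fold changes above 0 in the fit. The median log2 fold change in this fit was 1.203 over B1 names and -0.04 over all names. In the same fit 10 of the 16 names were lower in cystic EBs than in ysE and 0 higher (background 9.59% lower and 5.82% higher), and 0 were called by edgeR between cystic EBs and mesoderm (background 4.39% higher and 4.59% lower), where 4 had an unadjusted p under 0.05. B1_Mm and B1_Mus2 had the largest values on both scales.

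**Figure D3:**
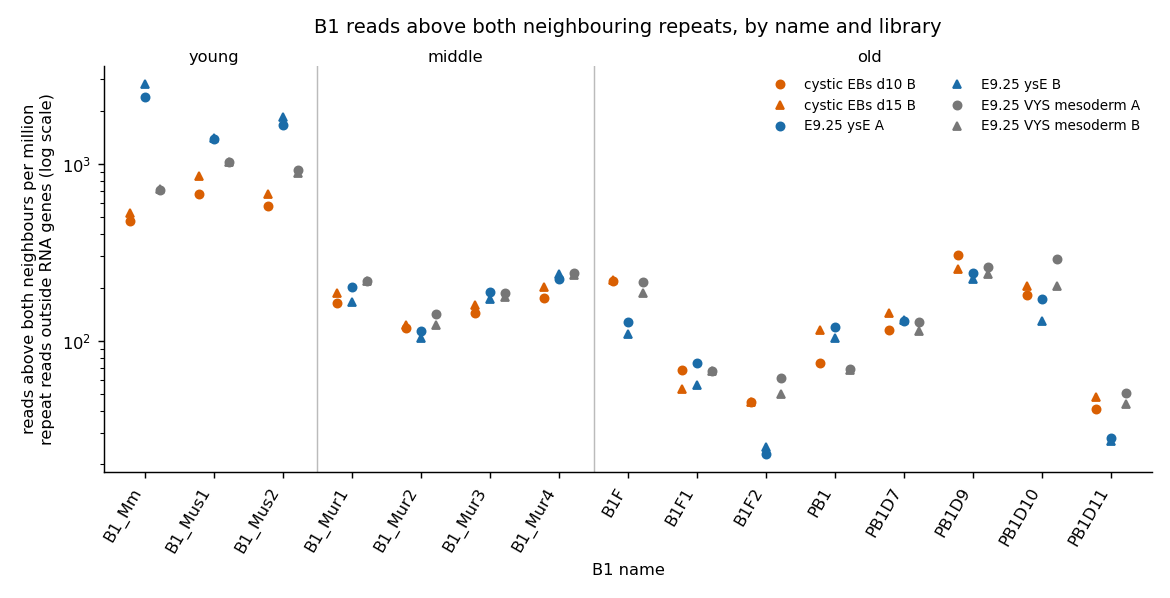
Reads of B1 elements above both adjacent repeats, summed by name, per 1000000 repeat reads outside RNA genes (vertical axis, log scale), for 15 B1 names (horizontal axis) in the 6 libraries, with circles and triangles for the first and second replicate. The 3 young names lie highest, and for B1_Mm the ysE libraries at 2392 and 2823 stand above mesoderm at 714 and 724.

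A small set of B1_Mm copies contributed to this. Among 3440 B1 elements with at least 600 reads, 8 had an element on another chromosome whose counts were within 5% in every library, and all 8 were B1_Mm of 146 or 147 bases, on 8 chromosomes. Each had 1993 to 2910 reads in ysE A and 3956 to 5928 in ysE B, against 291 to 567 in the mesoderm libraries and 99 to 150 in the cystic EB libraries. They held 7.66% and 8.05% of all B1_Mm reads in ysE, 1.80% and 2.40% in mesoderm, and 0.633% and 0.670% in cystic EBs. They formed a set of 5 with totals from 6832 to 7115 reads and a set of 3 with totals from 10028 to 10104. How reads that match several copies were counted is not given in the sources used here. Without them, B1_Mm reads above both neighbours were 1680 and 1970 per 1000000 in ysE, 611 and 592 in mesoderm, and 450 and 493 in cystic EBs, and the ratio of ysE to mesoderm was 3.03.

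Among single elements, 33257 B1 elements had enough reads to be tested. In ysE over mesoderm 286 were higher and 83 lower at a false discovery rate of 5% (edgeR, adjusted over 239554 elements), which is 0.860% and 0.250%. This was close to the background of 0.957% of all elements called higher and 0.282% called lower. Between cystic EBs and ysE, 728 B1 elements were higher and 3469 lower in cystic EBs, 2.19% and 10.4% of those tested, against a background of 3.4% higher and 8.63% lower. In cystic EBs over mesoderm no element passed in edgeR (background 0% called higher and 0% called lower), and 5828 of the 33257 B1 elements had an unadjusted p under 0.05, beside 41901 of all 239554. With a minimum count of 20 in place of 10, 79 of 19301 B1 elements were higher and 162 lower there (0.409% and 0.839%, against 0.5% and 0.726% of all 137922 elements). In ysE over mesoderm 1113 were then higher and 367 lower (5.77% and 1.9%, against 5.88% and 2.34% of all), and between cystic EBs and ysE 1020 were higher and 3437 lower (5.28% and 17.8%, against 9.73% and 15% of all). With the replicate block no B1 element was called in any comparison, and neither was any other of the 239554 elements. This loss is therefore not particular to B1. The single calls rest on all libraries being present and on a fit without the block.

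The 5 elements with most reads had reads in all 6 libraries. The highest was a PB1D9 element of 97 bases (chr5:129846134-129846230), which overlaps the gene Cct6a of the RefSeq annotation used here although the table was made for elements outside genes. Cct6a encodes a subunit of the cytosolic chaperonin. The element had 8470 and 11600 reads in ysE, 4704 and 5884 in mesoderm, and 5182 and 4439 in cystic EBs. Its adjacent repeats had 28785 and 50 reads in all libraries together, against its own 40279. The next was a B1_Mus1 element (chr14:73954259-73954355), 60497 bases from Gm35517, with 2457 to 3855 reads in each library. Its adjacent repeats had 8 and 11 reads in all libraries together, so that its counts were not shared with them. It was 97 bases long with an alignment score of 229, against medians of 142 and 1022 for its name. The third, a B1_Mm element (chr12:69363132-69363281) 5931 bases from Nemf, had 1855 to 3942 reads per library, and its neighbours had 14358 and 13809 reads in all against its own 14357. The 2 others lay close together near Snx6 on chromosome 12 (B1_Mm, chr12:54728292-54728438, and B1_Mur4, chr12:54728762-54728837) and shared nearly all their counts. Both had 6028 reads in mesoderm A and at most 2667 in any other library.

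The largest called changes also lay in stretches with shared counts. In ysE over mesoderm these were a B1_Mus2 element 4120 bases from Pithd1 (chr4:135991364-135991501) and a B1_Mus1 element 6280 bases from Eloa (chr4:135996942-135997090). The first had 2136 and 3385 reads in ysE, 41 and 41 in cystic EBs and none in either mesoderm library. Against a floor of 3 counts per library it was at least 670-fold higher in ysE, and the second, with 2135 and 3377 reads, also at least 670-fold. In the other direction, a B1_Mm element inside Gm42245 (chr5:29695814-29695944) had 209 and 235 reads in mesoderm and none in ysE, at least 94.2-fold lower, and a B1_Mus2 element 1485 bases from Nyap1 (chr5:137742653-137742794) was at least 72.2-fold lower.

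Between cystic EBs and ysE, a B1_Mus1 element 4586 bases from Ppm1k (chr6:57540138-57540286) had 1246 and 2291 reads in ysE and none in cystic EBs, at least 404-fold lower. A B1_Mur4 element inside C77080 (chr4:129252972-129253104) had 676 and 1428 reads in ysE and none in the 4 other libraries. The 2 largest called rises in cystic EBs were a PB1D7 and a B1_Mm element near Gm10340 (chr14:3124701-3124793 and chr14:3119276-3119409). They had 176 or 177 reads at d10 and 146 or 147 at d15, none in ysE and 62 to 129 in mesoderm. For each of these 8 elements the adjacent repeats had nearly the same total, such as 5598 and 5592 reads beside the 5603 of the B1_Mus2 element near Pithd1.

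The position of B1 elements relative to H3K4me3 peaks, a mark of active promoters, was then compared. Of all B1 elements 1.011% overlapped a peak of the visceral yolk sac, against 0.508% of all repeats. Of the other SINE families it was 0.531% of B2, 0.603% of B4 and 0.749% of ID. The share was 0.810% for young, 1.09% for intermediate and 1.18% for old B1. Within 1 kb of a peak lay 4.52% of B1 elements and 1.95% of repeats outside RNA genes, and over 100 kb away 30.6% and 52.4%.

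Reads on B1 followed this distance. On the density scale, B1 elements within 1 kb of a peak had 7.496 and 8.34 in ysE, 5.51 and 5.48 in mesoderm, and 4.07 and 4.68 in cystic EBs. Between 20 and 100 kb from a peak these were 2.21 and 2.51, 1.31 and 1.44, and 0.933 and 1.07. Over 100 kb from a peak the order was turned round, with 0.626 and 0.579 in ysE, 0.832 and 0.840 in mesoderm, and 0.978 and 0.984 in cystic EBs, and the groups again did not overlap. The higher level of ysE was therefore found in B1 elements up to 100 kb from a peak and not in the 89519 elements beyond. All repeats outside RNA genes had the same order. Within 1 kb their mean densities were 5.89 in ysE, 5.07 in mesoderm and 4.17 in cystic EBs, from 20 to 100 kb they were 1.41, 1.28 and 1.26, and over 100 kb they were 0.679, 0.933 and 1.03. The peaks were called in whole visceral yolk sac, of which ysE and mesoderm are layers, and no peaks of cystic EBs were used.

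For methylation, reads at CpGs were summed over elements, because a CpG call rested on a median of 1 read. B1 elements had 97831 to 143397 reads at CpGs per library on the 16 chromosomes with calls in all 6 libraries. Methylated reads made up 54.2% and 50.3% in ysE (CxF and FxC), 62.4% and 65.4% in fetal liver, and 68.6% and 61.7% in d15 cystic EBs. Means were 52.3% ± 2.80 (SD, n = 2) in ysE, 63.9% ± 2.15 in fetal liver and 65.2% ± 4.90 in cystic EBs. Both ysE libraries lay below all others. The mean of ysE minus liver was -11.6 percentage points, and that of cystic EBs minus ysE was 12.9. Cystic EBs and liver overlapped, and their difference of 1.29 points was smaller than the spread between libraries. It was -2.17 points without the CxF library of cystic EBs and -0.23 without that of liver.

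B1 was less methylated than repeats as a whole in each library. All repeats had 63.7% and 56.3% in ysE, 75.4% and 77.8% in fetal liver, and 84.9% and 80.1% in cystic EBs, and the mean difference of B1 minus all repeats was -7.74 points in ysE, -12.7 in fetal liver and -17.3 in cystic EBs. The gap between ysE and cystic EBs was 12.9 points for B1 and 22.5 points for all repeats. B2 had 59.0% ± 4.08 in ysE, 72.8% ± 2.67 in fetal liver and 74.1% ± 5.20 in cystic EBs and B4 60.2% ± 5.71, 76.0% ± 2.07 and 81.2% ± 4.12, so that B1 was the lowest of these SINE families in each tissue mean.

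Young names carried the low values. Their reads were methylated in 48.5% and 48.2% of cases in ysE, 57.2% and 61.1% in fetal liver, and 62.4% and 58.2% in cystic EBs. Old names had 63.4% and 56.2%, 73.6% and 75.2%, and 83.1% and 77.2%. The difference of young minus old was -14.9 and -7.99 points in ysE, -16.3 and -14.0 in fetal liver, and -20.7 and -19.0 in cystic EBs, so it was below 0 in 6 of 6 libraries. Intermediate names lay between, with means of 53.3%, 66.4% and 67.7%. The makeup of the reads differed too, since young names gave 54.3% of B1 reads at CpGs in the CxF library of ysE but 73.9% in the FxC library of cystic EBs, and its part in the family values was not tested beyond the unweighted mean over names. That mean was 55.8% in ysE, 69.3% in fetal liver and 73.1% in cystic EBs.

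B1_Mus1, the largest name, was lowest in every library, with 45.5% and 44.5% in ysE, 53.9% and 58.2% in fetal liver, and 60.7% and 56.6% in cystic EBs. B1_Mm, the youngest, was slightly higher, with 49.1% and 50.3%, 58.8% and 62.8%, and 63.2% and 59.6%. PB1 was highest in 5 of the 6 libraries, with 68.0% and 59.3% in ysE, 77.4% and 80.2% in fetal liver, and 87.8% and 82.9% in cystic EBs, and B1F1 with 60.4% was above it in the FxC library of ysE. Called CpG sites numbered 102 per 100 elements in B1_Mm, 87.9 in B1_Mus2 and 65.8 in B1_Mus1, against 43.4 over intermediate and 45.8 over old names.

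**Figure D4:**
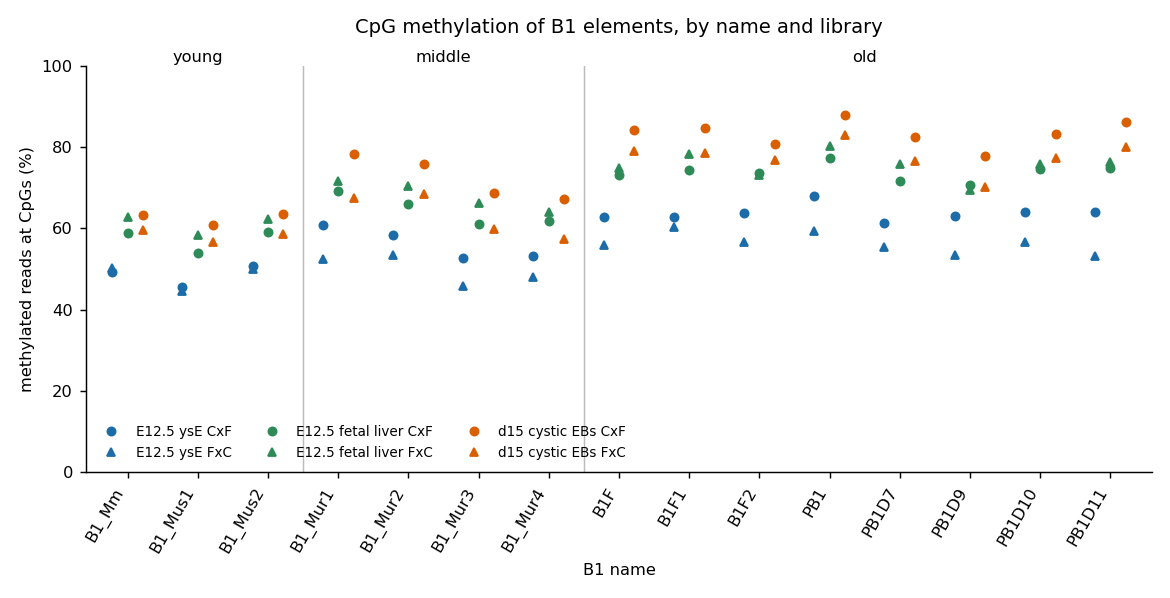
Percent of methylated reads at CpGs (vertical axis) for 15 B1 names (horizontal axis) in 6 bisulfite libraries, with circles for CxF and triangles for FxC. The young names on the left lie lower than the old names on the right in each tissue, from 44.5% (B1_Mus1, ysE FxC) to 87.8% (PB1, cystic EBs CxF).

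In the test name by name, 15 of 15 B1 names with enough reads were less methylated in ysE than in fetal liver (edgeR on methylated and unmethylated reads, false discovery rate of 5% over 668 names), against a background of 90.6% of all names called lower and 0% called higher. The log2 odds ratios lay between -1.11 for PB1D11 and -0.61 for B1_Mus2, with a median of -0.86 over B1 and -1.23 over all names. No B1 name was called without the CxF or the FxC library of liver or without the FxC library of ysE, and limma called 9. Against ysE, 15 of 15 names were higher in cystic EBs, against a background of 98.1% called higher and 0% called lower, with a median log2 odds ratio of 1.06 for B1 and 2.03 for all names. Young names had a median of 0.69 and old names of 1.49. Without the CxF library of cystic EBs, 8 of the 15 were called.

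In cystic EBs over liver no B1 name was called by edgeR or by limma, while 29.6% of all names were called higher and 0.15% lower. At an unadjusted p under 0.05 there was 1 B1 name. The log2 odds ratios lay between -0.02 for B1_Mur4 (adjusted p = 0.951, edgeR) and 0.70 for PB1D11 (adjusted p = 0.141, edgeR), and the median was 0.04 for young, 0.12 for intermediate and 0.48 for old names, against 0.70 for all names. Old B1 in percent stood at 83.1% and 77.2% in cystic EBs and at 73.6% and 75.2% in fetal liver, without overlap, whereas young B1 overlapped. Both contrasts with liver or ysE share these libraries.

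Methylation also differed by the alignment score of an element to its consensus. Elements with an alignment score under 500 had 59.7% ± 4.91 in ysE, 74.2% ± 1.76 in fetal liver and 80.04% ± 4.22 in cystic EBs. From 900 to below 1100 the values were lowest, at 43.3% ± 0.581, 54.6% ± 2.99 and 57.1% ± 3.44. Elements at 1100 or more were higher again, at 49.4% ± 0.482, 59.7% ± 3.12 and 60.4% ± 2.49, and were above the class below them in each of the 6 libraries. The same turn was seen within young names, with 43.2%, 54.5% and 57.3% from 900 to below 1100 and 49.4%, 59.7% and 60.5% above.

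By distance to an H3K4me3 peak, B1 in ysE was lowest far from peaks. It had 49.3% and 49.4% within 1 kb, 57.8% and 53.8% from 5 to 20 kb, and 45.8% and 41.8% over 100 kb from a peak. In cystic EBs the elements over 100 kb away had 69.2% and 62.1%, against 64.0% and 56.6% within 1 kb, and liver had 60.5% and 62.1% against 59.7% and 63.5%. The ysE difference depended on the peaks used, since the mean within 1 kb minus that over 100 kb was 5.59 points with all peaks and 1.12 with the upper 50% of peaks by score, while that of fetal liver turned from 0.33 to -2.05. With all peaks, the difference between ysE and cystic EBs grew from 10.9 points within 1 kb to 21.9 points over 100 kb, and was smallest, at 8.73 points, from 1 to 5 kb. Other repeats had the same low value in ysE far from peaks, a mean of 56.4% over 100 kb against 67.1% from 1 to 5 kb, while in cystic EBs they had 83.7% and 82.2%.

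**Figure D5:**
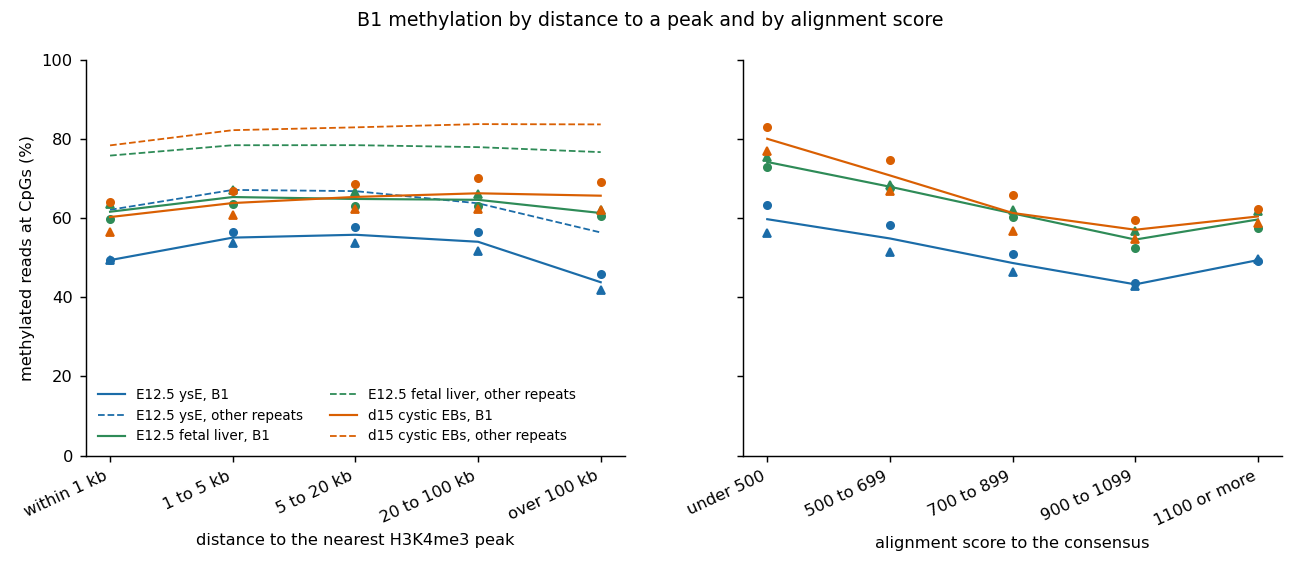
Percent of methylated reads at CpGs (vertical axis) of B1 elements by distance to the nearest H3K4me3 peak of visceral yolk sac (left) and by alignment score to the repeat consensus (right), with lines for tissue means, circles for CxF and triangles for FxC libraries, and dashed lines for the mean of other repeats. In ysE the line falls to 43.8% over 100 kb from a peak, and in the right panel all tissues are lowest at scores from 900 to below 1100.

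Single elements had few reads. Between 6027 and 9451 B1 elements of a library had at least 5 reads. Their median methylation was 56.9% and 50% in ysE, 63.6% and 68.8% in fetal liver, and 71.4% and 62.5% in cystic EBs. Elements at 20% methylation or less made up 19.3% and 23.2% in ysE, 12.51% and 10.53% in fetal liver, and 8.98% and 12.3% in cystic EBs. Among young elements those at 80% or more made up 16.9% and 16.3% in ysE, 24.8% and 29.2% in fetal liver, and 29.5% and 26.4% in cystic EBs. Among old elements they made up 51.7% and 47.6%, 65.5% and 68.1%, and 78.1% and 69.8%, so that the share of highly methylated elements was larger among old B1 in each library.

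Elements were also sorted by their own methylation in E12.5 ysE, and their reads in E9.25 ysE compared on the density scale. The 2703 elements at 20% or less had 2.72 and 2.96, the 7155 between 3.76 and 4.68, and the 3503 at 80% or more 3.55 and 3.85. Elements sorted by methylation in d15 cystic EBs had densities in cystic EBs of 1.42 and 1.90 at 20% or less. The 9506 between had 1.38 and 1.58, and those at 80% or more 1.39 and 1.68. In ysE the density was thus lower at low than at high methylation in both libraries. In cystic EBs it was slightly higher at low than at high methylation within each library, and the ranges of the libraries overlapped. The elements between had the lowest density there, so it did not fall steadily as methylation rose. The density rests on few elements with many reads. The median element in ysE had 2 reads over both libraries at low and at high methylation alike, and 67.5% and 65.5% of the elements had a read.

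Genes that transcribe or bind B1 RNA were taken from the transcript counts of the same 6 libraries. The list held 26 genes, 10 subunits of RNA polymerase III, 10 initiation factors, the repressor Maf1 and 5 RNA-binding proteins. In ysE over mesoderm 6 of 26 were higher and 3 lower (edgeR, adjusted over 23265 transcripts), against a background of 22.8% of all transcripts called higher and 26.3% called lower. Polr3g, a subunit of one form of the polymerase, had 10.1 and 8.79 RPKM in ysE and 5.73 and 6.43 in mesoderm (log2 fold change 0.87, SE 0.20, adjusted p = 0.00850, edgeR). The large catalytic subunit Polr3a rose by 0.85 (adjusted p = 0.0124, edgeR). Of the 10 subunits 5 were higher and 1 lower, which was Polr3k, named here after its values were seen (-0.85, adjusted p = 0.00571, edgeR). None of the initiation factors passed. The count of 6 fell to 1 without ysE A or ysE B, to 0 without mesoderm A and to 3 without mesoderm B. Adar, which edits double-stranded RNA, had 0.879 and 0.895 RPKM in ysE and 2.63 and 2.55 in mesoderm (-1.30, adjusted p = 0.000860, edgeR). Trove2, the Ro protein that binds small RNAs, was also lower (-1.12, adjusted p = 0.00214, edgeR).

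Against ysE, 4 of the 26 were higher and 8 lower in cystic EBs, with a background of 33.7% called higher and 27.2% called lower. Adar, at 5.02 and 4.32 RPKM in cystic EBs, was higher by 2.04 (adjusted p = 0.000114, edgeR), and Trove2 by 1.60. The lower genes included the subunit Polr3e (-1.16, adjusted p = 0.000413, edgeR). In cystic EBs over mesoderm 4 were higher and 5 lower, against 21.1% and 21.4%. Srp9, which binds the part of 7SL RNA that B1 descends from, rose from 9.14 and 7.87 RPKM in mesoderm to 24.5 and 28.7 in cystic EBs (1.53, adjusted p = 0.000526, edgeR), and Polr3g rose by 0.96. Its partner Srp14 was lower there (-0.76, adjusted p = 0.00735, edgeR), as was Polr3k (-0.83). The 4 higher genes fell to 1 without mesoderm A and to 2 without mesoderm B, and the 5 lower genes to 2 and 3. The counts in all 3 comparisons were near or below the background shares, and the relation of these genes to the B1 reads was not tested.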

How the data were processed

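RNA was depleted of rRNA and methylation was called with BisSNP, as the study's methods state. The labels of the 6 RNA libraries used cite the protocol that these methods describe as strand-specific with dUTP. The submitters' processing notes name GSNAP, MACS 1.4.2, bedtools and build mm10. The authors deposited raw read counts per repeat element and per transcript, RPKM values per transcript, percent methylation with read coverage per CpG, and H3K4me3 peaks with a MACS score.

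From the deposited counts, reads were summed by repeat name and tested with edgeR 4.0.16 (quasi-likelihood, TMM, filterByExpr with a minimum count of 10, all 3 groups in the fit, R 4.3.3), as were single elements and transcripts. Methylated and unmethylated reads, from percent and coverage, were summed by name over chromosomes 1 to 12, 14 and 16 to 18, which had calls in all 6 libraries, and tested in edgeR for names with at least 100 reads in every library. The false discovery rate was 5% (Benjamini-Hochberg). DESeq2 1.42.0 and limma 3.58.1 served as alternatives, and Python 3.11.15 with pandas 2.3.3 and scipy 1.17.1 for the rest. The fits by repeat name, for reads and for methylation, were tested on simulated data, and the other steps were not.

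Libraries were grouped by their titles and descriptions. Each E9.25 sample pooled a whole litter by the study's methods, while both cystic EB libraries share a clone, so their p-values measure only the spread between these samples. The members and lists were chosen with earlier results of these data known. Named were all B1 names, the 5 B1 elements with most reads, the 2 called elements and the 2 called genes with the largest change per direction and comparison. Called elements were named only where their libraries did not overlap between the groups compared. Some genes that this rule or a marker list covers are not reported here. Reads at repeats with several near-identical copies depend on how the aligner placed them, which limits single elements and young names.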

Additional observations from a re-analysis of the deposited data

How the results depend on the processing

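Over 77 results and 835 alternatives, 653 values counted as unchanged. Effects and levels among them kept their direction and side of the threshold or moved by less than the replicate spread. Counts of calls stayed within a set factor of the main count. A fall from 14 to 10 names lower in cystic EBs over ysE, with reads above both neighbours, thus counted as unchanged. Of the results that answer a comparison, these changed. With only the 2 groups compared in the fit, B1 names higher in ysE over mesoderm fell from 13 to 5. Leaving out 1 library gave 0 to 16 for this count, 3 to 16 for names lower in cystic EBs over ysE, and 0 to 0 for single elements in both contrasts with ysE. FAM ranged from -0.66 to 1.83 in ysE over mesoderm and from -1.90 to 0.62 in cystic EBs over ysE. The other B1 names kept their direction in these fits, and calls of single elements were lost in all classes alike. With a minimum count of 20, 1113 of 19301 B1 elements were higher and 367 lower in ysE over mesoderm (all elements 5.88% and 2.34%), and 79 higher and 162 lower in cystic EBs over mesoderm (all elements 0.5% and 0.726%). The B1 share was 5.46% in cystic EBs and 6.96% in mesoderm without the 10 most counted elements of each name, and 1.45%, 2.19% and 1.53% in cystic EBs, ysE and mesoderm as a share of all repeat reads. With reads above both neighbours, chosen after seeing the data, log2 fold changes turned to 0.14 for B1_Mur1 in cystic EBs over mesoderm and to 0.0691 for B1F and 0.0632 for B1F2 in cystic EBs over ysE. B1F2 in cystic EBs over mesoderm turned to -0.10 without the 10 most counted elements and to -0.0184 with the replicate block. B1 methylation in ysE was 55.1% over elements read in every library, where young minus old was -19.4 points in liver and -28.7 in cystic EBs. The unweighted mean over names, also chosen after seeing the data, was 55.8% for ysE, 69.3% for liver and 73.1% for cystic EBs. With at least 1 read the median element had 77.5% in liver and 87.5% in cystic EBs. Cystic EBs minus liver ranged from -2.17 to 4.76 points without 1 library, names called for methylation from 0 to 15 in ysE over liver and from 8 to 15 in cystic EBs over ysE, and limma called 9 in the former. Methylation nearest to peaks minus farthest, 5.59 points for ysE, 0.33 for liver and -5.40 for cystic EBs, was 1.12, -2.05 and -7.47 in this order with the upper 50% of peaks by score, and 2.06 in liver and -3.97 in cystic EBs within 2 kb. RNA polymerase III genes ranged from 0 to 8 higher in ysE over mesoderm, and from 1 to 6 higher (4 without ysE A or ysE B) and 2 to 7 lower in cystic EBs over mesoderm. The cause of these changes was not tested.

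The main fits did not pair samples by replicate letter or cross direction. Deviations of equal letters correlated by 0.02 over repeat names and -0.10 over transcripts, and those of equal crosses by -0.05 to 0.06. These correlations cannot show whether samples of equal letter or cross were paired in the experiment. With the replicate block, B1 names called were 13, 0 and 15 in ysE over mesoderm, cystic EBs over mesoderm and cystic EBs over ysE. Names called for methylation were then 15, 0 and 15, and RNA polymerase III genes higher in cystic EBs over mesoderm 2. Single B1 elements called were 0 in each direction, as were those of all classes. Depth limits methylation of single elements, with a median of 1 read per CpG call, and 2 libraries per group limit all tests.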
